A study of Mus musculus with 38 samples.

Results

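L2, CR1 and MIR elements are old transposable elements (TEs) that stopped moving long before rodents arose and now lie scattered through the mouse genome as short remnants. Signal of proteins of the nuclear periphery was measured here over every copy that the deposited TE tables assign to the family L2, CR1 or MIR, which gave 212528 of 3793386 copies (5.60%), namely 75535 L2, 16217 CR1 and 120776 MIR copies in 44 subfamilies. The label was taken from the family names of the tables, which hold no ages and no coordinates of copies.

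CUT&RUN cuts chromatin next to an antibody-bound protein with a tethered nuclease and sequences the released fragments. It was run on naive mouse embryonic stem cells (naive mESCs) and on epiblast-like cells (EpiLCs) made from them with FGF and Activin A, each after 48 h in its medium, from 200000 cells and with 0.3 pg of yeast spike-in DNA. LAP2B was mapped in wild-type (WT) cells, in cells without the lamin B receptor (LBRKO), in cells without the lamins Lmna, Lmnb1 and Lmnb2 (TKO) and in cells without those lamins and the receptor (QKO). LMNB1 and a background antibody (IGG) were mapped in WT cells only. Each of the 12 groups held 3 libraries, and the H3K9me3 samples were not analysed here. WT and TKO cells are separate lines derived from littermates, the TKO line with an abnormal karyotype and the WT line mostly of normal ploidy with minor abnormal populations, so karyotype and genotype cannot be told apart. LBRKO cells were made from WT cells by CRISPR, and QKO cells are 1 surviving clone made from TKO cells. The study reported that fewer LBRKO and TKO cells survived as EpiLCs, and far fewer QKO cells. Mutant EpiLC libraries therefore come from survivors, and stage and survival cannot be told apart in them. Nothing states that the 3 libraries of a group came from separate cultures, so p-values measure the spread between libraries, which may be technical. Because CUT&RUN sequences genomic DNA, neither the loss of the targeted proteins nor cell type markers could be checked in these data.

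L2 and CR1 are related long interspersed elements (LINEs), which once copied themselves through their own reverse transcriptase, and L3 is the mammalian lineage of CR1. MIR is a tRNA-derived short interspersed element (SINE) whose 3′ end resembles that of L2, whose machinery it is thought to have borrowed. The nuclear lamina, a meshwork of lamins under the inner nuclear membrane, holds gene-poor chromatin at the nuclear edge. LBR is a membrane protein that tethers heterochromatin there, and LAP2B, a product of Tmpo, is a membrane protein that binds lamins and chromatin. LAP2B signal over a copy is taken here as LAP2B binding to that stretch of the genome, and not as a measure of lamina-associated domains. In WT EpiLCs the study found it outside such domains as well and did not use it in their place.

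Some L2 copies are the source of microRNA genes, the mir-28 family among them, and such genes place the bins that some copies touch. Copies were placed by their reads: a copy with the same number of reads as a gene in each of the 36 libraries was taken to touch the same 1000-base bin. Matches on a chromosome left out of this report were dropped before counting, so a listed gene lying there could not be counted. After that exclusion, 9 of the 12 miRNA genes looked up shared their reads with 13 copies, all of them L2 copies. This shows that copy and gene share a bin, not that the hairpin lies within the copy. Mature sequences are shown because they identify the placed genes, and no RNA was measured here. They are from RefSeq (table build GRCm38.p6), 5′ to 3′, with the seed (bases 2 to 8) in capitals, and 7 of the 9 genes had an entry.
mmu-miR-28a-5p: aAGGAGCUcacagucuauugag
mmu-miR-708-5p: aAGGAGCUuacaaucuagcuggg
mmu-miR-493-3p: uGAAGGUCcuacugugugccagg
mmu-miR-325-3p: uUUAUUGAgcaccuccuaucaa
mmu-miR-374b-5p: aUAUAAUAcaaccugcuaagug
mmu-miR-421-5p: cUCAUUAAauguuuguugaau

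The first 2 sequences share the seed AGGAGCU, and the others each have a seed of their own. On GRCm39, Mir28a lies at chr16:24646605-24646690 on the plus strand, in a bin touched by 2 L2c copies. Mir708 lies at chr7:95898631-95898739 on the plus strand, in a bin with an L2c and an L2d copy. Mir493 lies at chr12:109546667-109546749 on the plus strand, with 1 L2b copy in its bin. Mir325 lies at chrX:104422688-104422785 on the minus strand. Mir374b (chrX:102616666-102616760, minus strand), Mir374c (chrX:102616691-102616739, plus strand) and Mir421 (chrX:102616527-102616602, minus strand) share 1 bin and its L2c and L2d copies. Mir28c lies at chr15:53477601-53477675 and Mir151 at chr15:73126664-73126731, both on the minus strand. These are genes of non-coding RNA, so the terms exon and UTR of a coding gene do not apply.

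Each deposited value is the sum of spike-in scaled RPKM over the bins that a copy touches and is not divided by its length. Levels are therefore compared between libraries, or as a ratio to IGG over the same bins, and not directly between subfamilies. Whole reads could be recovered, and they came to 1888348 to 6765917 over the member copies per library, with a median of 8 to 28 reads per copy. Single copies are therefore imprecise, and results rest on pooled copies or on subfamilies. Of the member copies, 49.9% had the same reads as another TE copy in every library, against 55.1% of all TE copies. Such copies were taken to touch the same bins, so their reads are not independent. Copies that share only some of their bins are not in these shares.

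In WT cells the families differed in their share of copies with much lamin B1 over IGG. When all TE copies were ordered by their WT LMNB1 over IGG in naive mESCs, 21.6% of the member copies stood in the top quartile. The share was 27.9% for CR1, 23.3% for L2 and 19.6% for MIR. It was 28.9% for the L1M elements, old LINE-1 remnants, 23.7% for DNA transposons and 15.7% for B1, a rodent SINE rich in gene-dense regions. The place of CR1 depended on the division by IGG: ordered by LMNB1 itself, 20.4% of CR1, 20.2% of L2, 16.4% of MIR, 20.4% of DNA transposon and 24.0% of L1M copies stood in the top quartile. That order uses sums over bins, so it also reflects how many bins a copy touches. In EpiLCs the shares over IGG were 27.3% for CR1, 23.0% for L2 and 19.0% for MIR, in the same order. As pooled signal CR1 and L2 stood close together. Relative to all other TE copies, naive LMNB1 minus IGG was -0.17 for MIR, -0.06 for L2 and -0.05 for CR1 on the log2 scale, and in EpiLCs -0.18, -0.06 and -0.06.

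Subfamilies were compared with limma on the relative scale, that is, after dividing each library by its median TE subfamily. Of 42 member subfamilies with 10 or more copies, 10 were higher and 16 lower in LMNB1 than in IGG in naive mESCs, against 30.4% and 34.9% of all 1202 subfamilies. In EpiLCs 9 were higher and 18 lower (31.9% and 32.5% of all). All 5 MIR subfamilies were lower in naive mESCs, with a median log2 difference of -0.28, while 7 of 24 CR1 subfamilies were higher and 5 lower. This direction is relative to the median TE subfamily, and other scalings moved members and other subfamilies together. Scaled by the median gene, 41 of the 42 were higher in LMNB1 and 0 lower (95.6% and 0.749% of all), and in EpiLCs 40 and 0 (94.0% and 0.333%). Scaled by the mean over all TE copies, 23 were higher and 11 lower (54.7% and 16.1% of all), and in EpiLCs 17 and 12 (51.7% and 15.1%). With the median over copies in place of their mean, 6 were higher and 14 lower (20.2% and 18.8%), and in EpiLCs 1 and 11 (14.4% and 17.1%).

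For LAP2B against IGG, 9 member subfamilies were higher and 15 lower in naive mESCs (27.6% and 28.0% of all), and 6 and 12 in EpiLCs (22.5% and 18.5%). By the median gene they were 41 and 0 in naive mESCs (94.0% and 0.666% of all) and 25 and 0 in EpiLCs (67.7% and 0.416%). By the mean TE copy they were 23 and 7 (51.8% and 11.6%) and 10 and 7 (40.3% and 7.65%), and with the median over copies 2 and 8 (16.1% and 10.2%) and 1 and 3 (5.66% and 4.58%).

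MIR1_Amn, a MIR subfamily of 6323 copies named for the amniotes, lay at the lower end for LMNB1 over IGG. Its naive LMNB1 libraries had 0.738, 0.826 and 0.780 of the median subfamily and its IGG libraries 1.26, 1.17 and 1.14. The groups did not overlap, and the log2 difference was -0.55 (SE 0.050, limma adjusted p = 1.4e-09). At the other end stood X7D_LINE, a CR1 subfamily of 20 copies, with 1.08, 0.971 and 1.1 in LMNB1 and 0.733, 0.75 and 0.694 in IGG, also without overlap (log2 difference 0.48, limma adjusted p = 7.6e-05). In EpiLCs the same pair stood at -0.42 and 0.39. For LAP2B against IGG, the lower end was again MIR1_Amn (-0.42 in naive mESCs and -0.26 in EpiLCs) and the upper end was X21_LINE, a CR1 subfamily of 25 copies (0.43 and 0.33). In naive LMNB1 over IGG, L2, L3b, L2b, L2c and L3 were all called lower than the median subfamily, L2 and L3b by little (-0.03, which edgeR did not call and gave as 0.00039, and -0.06) and L2b, L2c and L3 by more (-0.31, -0.22 and -0.22).

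The first comparison between genotypes asks how much LAP2B signal the elements carried once tethers were removed. On the deposited scale, naive TKO and QKO cells had less LAP2B over L2, CR1 and MIR copies than WT cells, QKO least. LBRKO cells could not be told from WT cells on that scale. The mean deposited value over the copies was 0.533, 0.812 and 0.586 in the 3 naive WT libraries and 0.563, 0.647 and 0.753 in the LBRKO libraries, which overlapped. It was 0.253, 0.423 and 0.290 in TKO and 0.226, 0.185 and 0.217 in QKO. IGG libraries gave 0.127, 0.0879 and 0.135, below all naive QKO libraries. No TKO or QKO library reached the WT range, and no QKO library reached the TKO range. The log2 difference from WT was 0.04 in LBRKO (exact permutation p = 0.9), -1.01 in TKO (SE 0.289) and -1.60 in QKO (SE 0.203), and that of QKO from TKO -0.59. The deposited value divides reads by library depth before the spike-in factor is applied. The pooled difference of QKO from TKO was not taken with the factor applied to recovered reads. In that setting few naive member subfamilies were called lower in QKO than in TKO, as given below. Over the 4 genotypes an exact permutation test of F gave p = 0.000649. Each pairwise test of TKO and QKO gave 0.1, the smallest two-sided p that 3 libraries against 3 allow (0.133 adjusted over 4 tests).

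**Figure D1:**
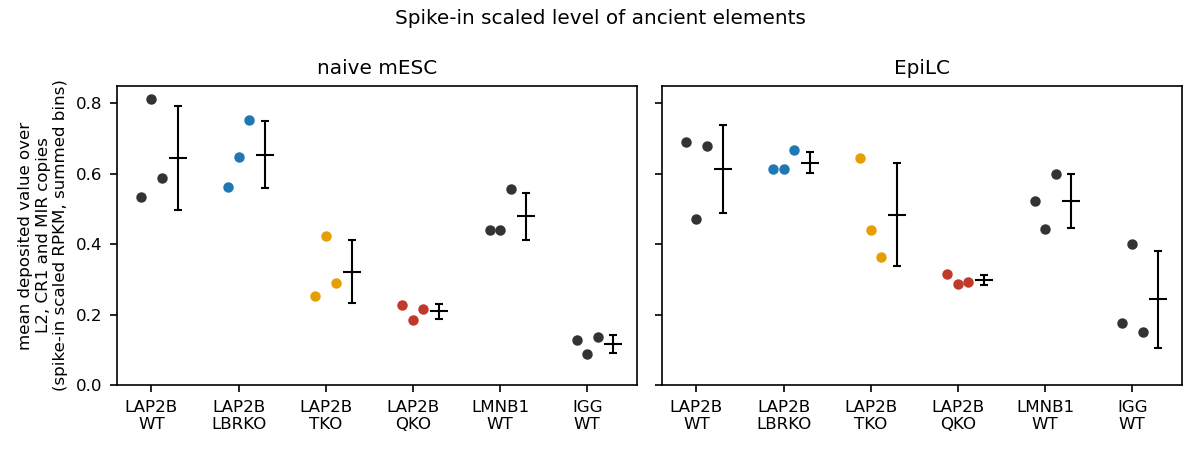
Mean deposited LAP2B, LMNB1 and IGG signal (spike-in scaled RPKM, summed over bins) over all L2, CR1 and MIR copies, by group, in naive mESCs and EpiLCs; dots are libraries and the black mark is the mean ± SD of 3. Naive TKO and QKO libraries (0.185 to 0.423) sit below all naive WT libraries (0.533 to 0.812). EpiLC QKO libraries (0.286 to 0.315) lie within the range of the EpiLC IGG libraries (0.151 to 0.401), whose upper end is 1 library.

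In EpiLCs only QKO stood apart from WT on the deposited scale. With the spike-in factor applied to recovered reads, part of the member subfamilies were called higher in LBRKO than in WT, as given below. WT libraries had 0.690, 0.470 and 0.678, LBRKO libraries 0.612, 0.614 and 0.666, and TKO libraries 0.645, 0.441 and 0.363, and these 3 groups overlapped. QKO libraries had 0.315, 0.286 and 0.294, below all libraries of the other genotypes. EpiLC IGG libraries had 0.177, 0.401 and 0.151. QKO lay within this range, but its upper end was set by 1 library, IGG replicate 2, and QKO stood above the other IGG libraries. Replicate 2 had the fewest reads over member copies of the EpiLC IGG libraries (2166038, against 3146637 and 5336084). Whether depth set its value was not tested. The study's methods name no spike-in constant for IGG, so at either stage a common scale with LAP2B is assumed. The log2 difference from WT was 0.06 in LBRKO, -0.36 in TKO (exact permutation p = 0.2; from -0.18 without TKO replicate 3 to -0.59 without TKO replicate 1) and -1.02 in QKO (SE 0.185; p = 0.1, the smallest possible), with p = 0.0105 over the genotypes by the exact permutation test of F. The difference in effect between stages did not pass its test for LBRKO, TKO or QKO (exact permutation, adjusted p 0.925, 0.24 and 0.24).

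All 3 families had lower values in naive TKO and QKO, by different amounts. In naive mESCs the mean value of WT, LBRKO, TKO and QKO was 0.691, 0.622, 0.330 and 0.187 for CR1, 0.662, 0.654, 0.321 and 0.200 for L2, and 0.627, 0.658, 0.321 and 0.218 for MIR. The QKO difference of the mean log2 values was -1.86 for CR1, -1.70 for L2 and -1.51 for MIR, and in EpiLCs -1.14, -1.06 and -0.98. By subfamily, limma called all 42 lower on the spike-in scale in naive TKO, in naive QKO and in EpiLC QKO, as it did 99.6%, 99.8% and 99.9% of all subfamilies. Lower signal was thus seen across TE subfamilies in general. QKO was lower than TKO in 39 subfamilies in naive mESCs (95.1% of all) and in 42 in EpiLCs (99.8%). In EpiLC TKO 4 were lower (15.6%), in naive LBRKO 1 (9.15%) and in EpiLC LBRKO 0 by limma (0.0%; also 0 at an unadjusted p under 0.05). In every one of these comparisons 0 member subfamilies were higher, against at most 0.0832% of all. The calls of EpiLC TKO against WT and of EpiLC QKO against TKO rested on single libraries, while EpiLC QKO against WT stayed at 42 without any 1 of its libraries. Without TKO replicate 1, 42 were called in TKO (97.9% of all) and 0 between QKO and TKO (0.0%), and without WT replicate 2, 40 in TKO (94.8%). Without any 1 of the other 4 EpiLC TKO and WT libraries 0 were called in TKO (at most 0.0832%). Without naive TKO replicate 2, 21 were lower in naive QKO than in TKO (69.6%). When recovered reads, in place of RPKM, were multiplied by the spike-in factor, 5 naive and 17 EpiLC member subfamilies were called higher in LBRKO than in WT (9.98% and 32.1% of all), and 3 and 35 lower in QKO than in TKO (13.4% and 82.9%).

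The next comparison asks whether the copies with most lamin B1 lost more than the rest. Member copies were ordered by the LMNB1 signal of WT cells at that stage. This order is by summed LMNB1 and not by LMNB1 over IGG, so a copy touching more bins tends to stand higher in it. The lamina contrast of a library is its mean over the quartile with most LMNB1 divided by its mean over the quartile with least. This contrast was lower in every mutant, and in naive QKO it was below 1. Naive WT libraries had contrasts of 3.12, 3.94 and 2.85, LBRKO libraries 2.19, 1.67 and 1.90, and TKO libraries 1.97, 1.57 and 2.00. Naive QKO libraries had 0.829, 0.925 and 0.856, so that the quartile richest in LMNB1 in WT cells carried less LAP2B than the poorest quartile. IGG libraries gave 1.71, 1.33 and 1.42, and LMNB1 libraries, which set the order, 6.32, 4.47 and 4.91. No mutant library reached the lowest WT library. The log2 difference from WT was -0.78 in LBRKO (SE 0.178), -0.83 in TKO (SE 0.179) and -1.91 in QKO (SE 0.147), and that of QKO from TKO -1.08. Over the genotypes the exact permutation test of F gave p = 0.000455, and each pairwise test 0.1, the smallest possible. The same differences over all other TE copies were -0.92, -0.76 and -1.92, so the members followed other TEs. By family the QKO difference was -1.66 for CR1, -1.86 for L2 and -1.94 for MIR.

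**Figure D2:**
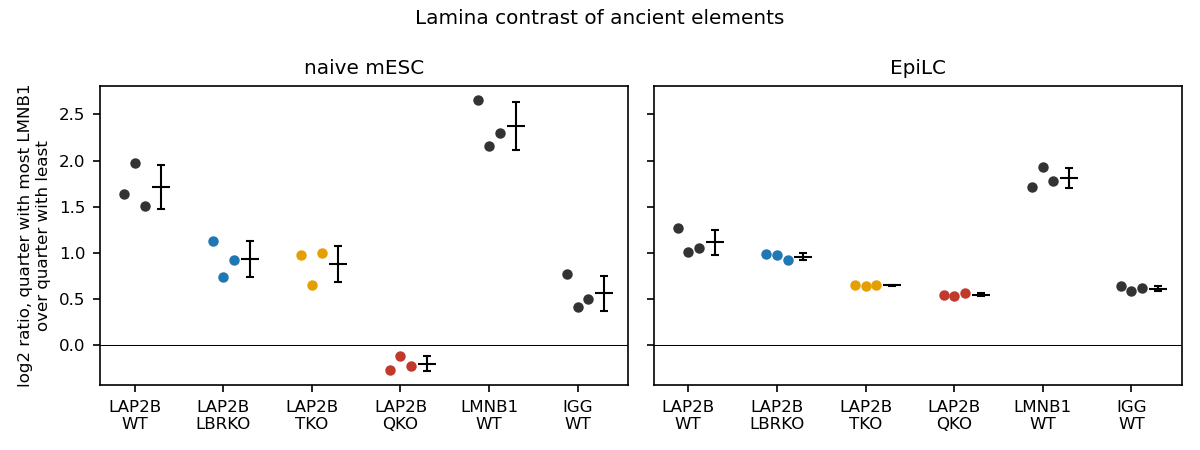
Lamina contrast (mean over the quartile of L2, CR1 and MIR copies with most WT LMNB1 divided by that over the quartile with least, log2 scale) per library in naive mESCs and EpiLCs; dots are libraries and the black mark is the mean ± SD of 3. Naive QKO libraries have linear contrasts of 0.829 to 0.925 and WT libraries 2.85 to 3.94.

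The levels behind the contrast differed between genotypes. In the quartile with most LMNB1, naive WT had a mean of 1.11 ± 0.31 (SD, n = 3), LBRKO 0.916 ± 0.12, TKO 0.452 ± 0.099 and QKO 0.207 ± 0.016, against 0.150 in IGG. In the quartile with least LMNB1 WT had 0.334 ± 0.042, LBRKO 0.484 ± 0.092, TKO 0.252 ± 0.092 and QKO 0.239 ± 0.031, against 0.101 in IGG. LBRKO thus overlapped WT at the copies with most LMNB1 (log2 difference -0.25) and lay above all WT libraries at those with least (0.52). QKO was lower at both (-2.39 and -0.48). These quartile levels are on the deposited scale and were not taken with the spike-in factor applied to recovered reads. By deciles of the LMNB1 order, the naive WT signal ran from 0.466 of the mean member copy in the lowest decile to 2.27 in the highest. In LBRKO it ran from 0.651 to 1.84, in TKO from 0.719 to 1.88 and in IGG from 0.834 to 1.65. The naive QKO profile had another shape, with 1.1 in the lowest decile, a minimum of 0.801 in the decile numbered 8 and 1.26 in the highest.

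**Figure D3:**
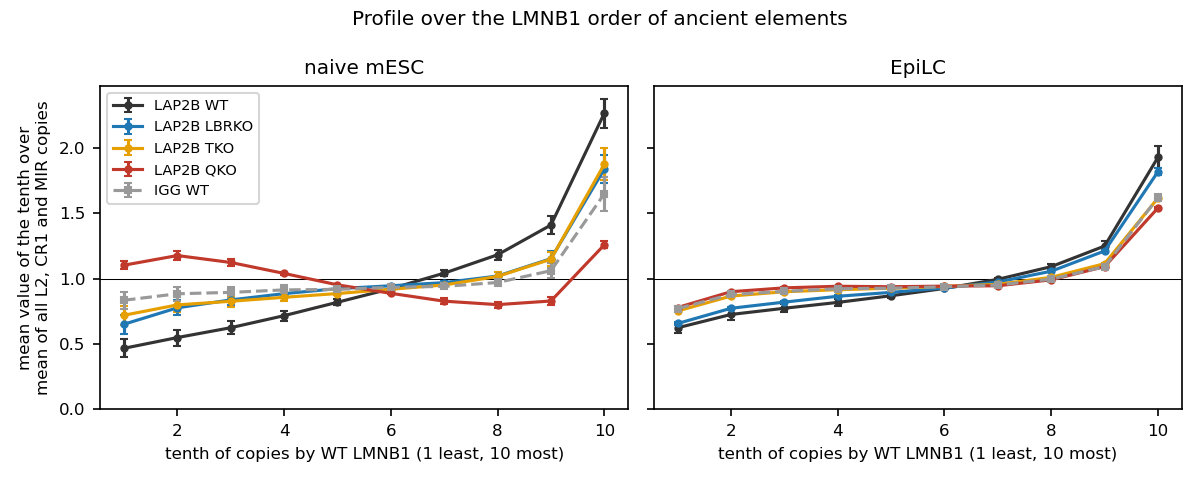
Mean LAP2B signal of each genotype and WT IGG signal (vertical axis, divided by the mean over all member copies) in each decile of L2, CR1 and MIR copies ordered by WT LMNB1 of the same stage (horizontal axis), for naive mESCs and EpiLCs; points are means of 3 libraries and bars their SD. The naive WT line climbs from 0.466 to 2.27, while the naive QKO line dips to 0.801 between ends of 1.1 and 1.26.

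In EpiLCs the contrast was smaller in WT and differed less between genotypes. WT libraries had 2.41, 2.02 and 2.08, LBRKO libraries 1.98, 1.97 and 1.89, TKO libraries 1.57, 1.56 and 1.57 and QKO libraries 1.46, 1.45 and 1.48, with 1.56, 1.5 and 1.53 in IGG. Mutant libraries all lay below WT, those of TKO stood at the level of IGG, and those of QKO lay below all IGG libraries. The log2 differences were -0.15 in LBRKO (SE 0.081; -0.08 without WT replicate 1), -0.46 in TKO and -0.57 in QKO, with p = 6.5e-05 over the genotypes by the exact permutation test of F, the smallest it can give. From naive mESCs to EpiLCs the WT contrast differed by -0.60 on the log2 scale for LAP2B, with no overlap, and by 0.05 for IGG, with overlap. For LMNB1 it differed by -0.56, with no overlap, but these libraries set the quartiles, so this value partly restates the ordering. The QKO effect was smaller in EpiLCs by 1.35 log2 units (exact permutation p = 0.005, the smallest of 400 assignments; adjusted p 0.015). The stage differences of LBRKO (0.62, adjusted p 0.06) and TKO (0.37, adjusted p 0.275) did not pass. The order of copies was itself partly different between stages, since 71.3% of the copies in the naive quartile with most LMNB1 were in that quartile in EpiLCs too, and 61.9% of those with least.

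Set against B1, the elements had less LAP2B in every mutant than in WT at both stages. The ratio of the mean over member copies to the mean over B1 copies was 1.12, 1.16 and 1.09 in naive WT. LBRKO libraries had 0.893, 0.927 and 0.880, TKO libraries 0.911, 0.949 and 0.917, and QKO libraries 0.710, 0.766 and 0.730. LMNB1 libraries averaged 1.12 and IGG libraries 0.985. WT stood above and all mutants below the IGG mean, and QKO libraries lay below all LBRKO and TKO libraries. The log2 difference was -0.32 in LBRKO (SE 0.033), -0.28 in TKO (SE 0.030) and -0.61 in QKO (SE 0.040; exact permutation p = 0.000195 over the genotypes). In EpiLCs the ratio was 1.07, 1.04 and 1.06 in WT and averaged 0.962, 0.971 and 0.915 in LBRKO, TKO and QKO, with differences of -0.14, -0.12 and -0.21 and no overlap with WT (exact permutation p = 0.00013). All 3 effects were smaller in EpiLCs, by 0.18, 0.15 and 0.40 log2 units, each with an exact permutation p of 0.005, the smallest possible.

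Set against lamina-richer elements, the direction was the opposite. Relative to L1M copies, the members stood 0.15, 0.15 and 0.36 log2 units higher in naive LBRKO, TKO and QKO than in WT. In EpiLCs the differences were 0.04 and 0.11, with overlap, and 0.13 in QKO. Relative to DNA transposons, remnants of cut-and-paste elements, they were 0.06, 0.05 and 0.18 in naive mESCs, TKO overlapping WT. In EpiLCs these differences were 0.02, 0.01 and 0.07, LBRKO and TKO overlapping. Against all other TE copies the naive ratio averaged 0.865 for WT, 0.967 for LBRKO, 0.876 for TKO and 0.942 for QKO, differences of 0.16, 0.02 (with overlap) and 0.12 (exact permutation p = 0.000779 over the genotypes). In EpiLCs these were 0.09, 0.07 and 0.09, and against the median gene those of TKO and QKO turned to -0.09 and -0.13. These comparisons depended on how copies were summarised. With the median over copies, the exact permutation p over the genotypes was 0.127 in naive mESCs and 0.299 in EpiLCs for L1M, 0.179 in naive mESCs for DNA transposons, and 0.616 in naive mESCs for all other TE copies, where the QKO difference was -0.0031. Against the median gene the differences in naive LBRKO, TKO and QKO were -0.15, -0.39 and -0.36.

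Within the set, MIR kept more LAP2B than L2 and CR1. Relative to the other two families, MIR stood 0.11, 0.08 and 0.22 log2 units higher in naive LBRKO, TKO and QKO than in WT (exact permutation p = 0.00013 over the genotypes). In EpiLCs it stood 0.03, 0.07 and 0.09 higher (exact permutation p = 6.5e-05, the smallest possible). CR1 went the other way in naive mESCs, by -0.19, -0.07 and -0.28, and L2 lay between them (-0.06, -0.06 and -0.15). These ratios between families were taken with the mean over copies only, and the median over copies was not tried for them. Against other TE copies, naive MIR libraries had 0.853, 0.830 and 0.846 in WT and 0.993, 0.962 and 0.985 in QKO. CR1 libraries had 0.929, 0.923 and 0.929 in WT and 0.815, 0.867 and 0.844 in QKO. WT and QKO libraries did not overlap in either family.

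The same parting was seen among subfamilies on the relative scale. In naive QKO, 20 of 42 member subfamilies rose and 14 fell relative to the median TE subfamily, against 38.2% and 42.7% of all. All 5 MIR subfamilies rose (median log2 change 0.48), as did 9 of 13 L2 subfamilies, with 2 falling (median 0.23). Of 24 CR1 subfamilies, 6 rose and 12 fell (median -0.14). In naive LBRKO 15 rose and 12 fell (31.0% and 41.9% of all), and in naive TKO 15 rose and 8 fell (33.4% and 20.9%). In both mutants all 5 MIR subfamilies were among those that rose. QKO differed from TKO in 19 upward and 11 downward (30.8% and 37.9%).

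The split of member subfamilies depended on the summary and the scaling, as did that of all subfamilies. Taken as the median over copies, naive LBRKO had 8 higher and 2 lower (15.2% and 30.1% of all), TKO 7 and 1 (13.6% and 5.07%), QKO 10 and 14 (17.6% and 35.7%), and QKO against TKO 2 and 10 (6.82% and 28.4%). Scaled by the mean TE copy, LBRKO had 11 higher and 17 lower (21.6% and 50.2% of all), TKO 4 and 21 (12.3% and 53.7%), QKO 7 and 27 (13.0% and 74.8%), and QKO against TKO 10 and 22 (11.2% and 66.1%). Scaled by the median gene, LBRKO had 0 higher and 36 lower (2.33% and 88.4% of all), TKO 0 and 42 (0.416% and 96.4%), QKO 0 and 40 (2.5% and 94.9%), and QKO against TKO 3 and 22 (4.83% and 68.1%). The median of all subfamilies moved under that scaling by -0.36, -0.46 and -0.70 in LBRKO, TKO and QKO.

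**Figure D4:**
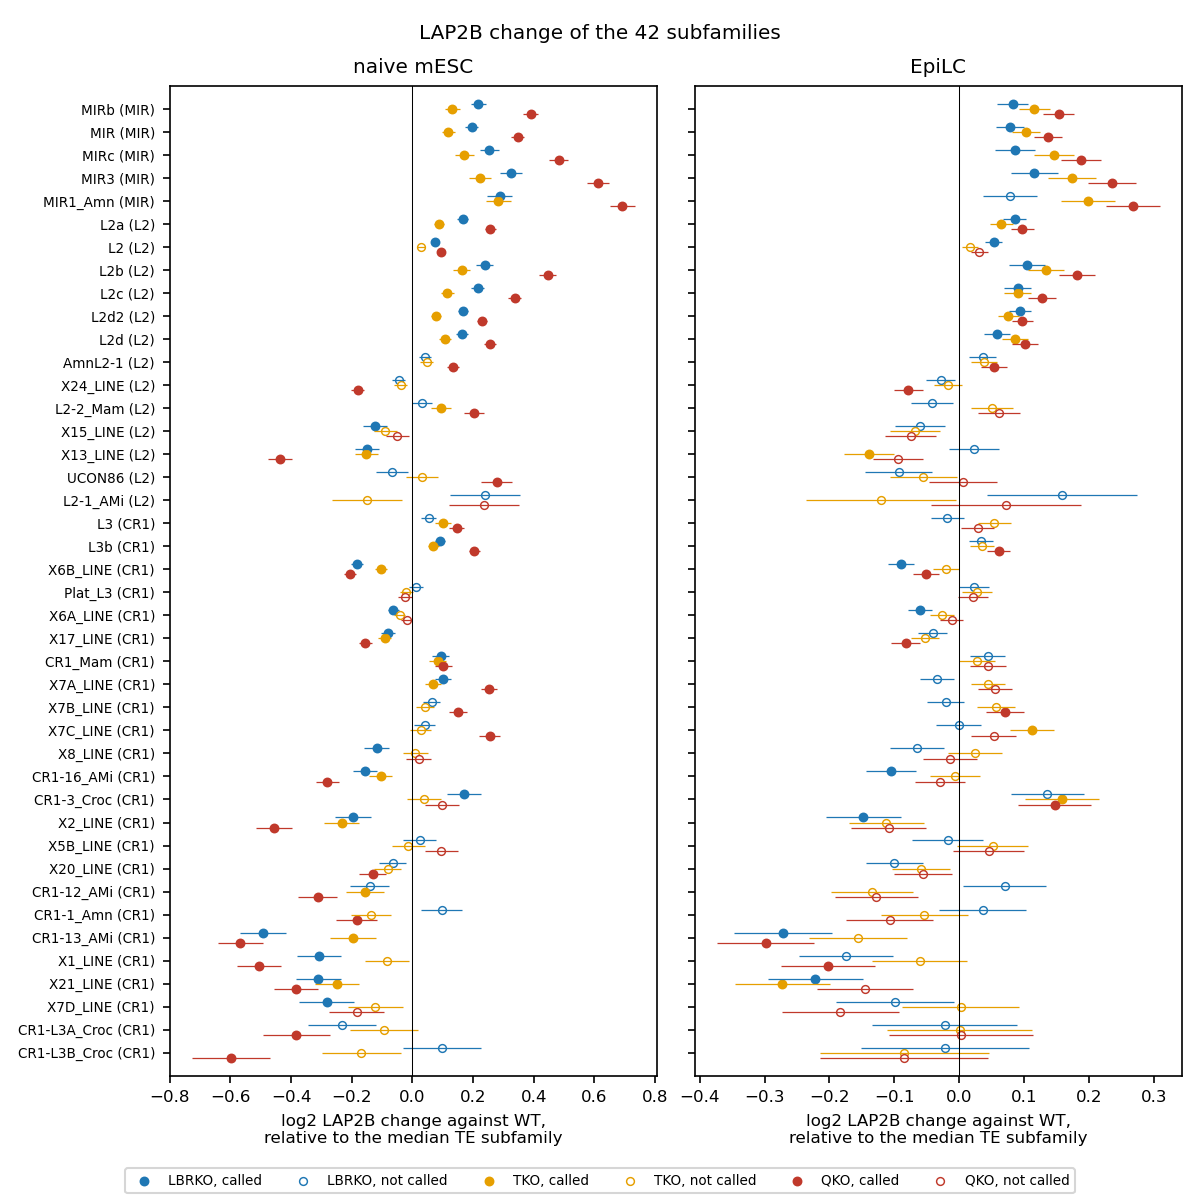
Log2 change of LAP2B against WT on the relative scale (each library divided by its median TE subfamily) for the 42 member subfamilies, in LBRKO, TKO and QKO at both stages; points are limma estimates, filled where called and white where not, and bars are their SE. MIR1_Amn reaches 0.69 in naive QKO, while X6B_LINE stays below 0 in all genotypes.

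MIR1_Amn had the largest rise of the member subfamilies. Its naive WT libraries had 0.877, 0.826 and 0.885 of the median subfamily, LBRKO libraries 1.02, 1.11 and 1.1, TKO libraries 1.05, 1.11 and 1.06, and QKO libraries 1.52, 1.34 and 1.51. All mutant libraries lay above WT, and all QKO libraries above the other mutants. The log2 change was 0.29 in LBRKO, 0.28 in TKO (limma adjusted p = 2.7e-05) and 0.69 in QKO (SE 0.041, limma adjusted p = 1.6e-11), and 0.41 in QKO against TKO. MIR3, next lowest in LMNB1 over IGG among the MIR subfamilies, had 0.850, 0.798 and 0.853 in WT and 1.40, 1.24 and 1.34 in QKO, a change of 0.61. It led the rises in naive LBRKO (0.32, limma adjusted p = 2.4e-07). The subfamily MIRb, with the most copies (41587), changed by 0.22, 0.13 and 0.39 in LBRKO, TKO and QKO, the subfamily MIR by 0.20, 0.12 and 0.35, and MIRc by 0.25, 0.17 and 0.48.

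The L2 subfamilies differed by letter. L2b had 0.889, 0.844 and 0.894 in naive WT and 1.17 to 1.27 in QKO, without overlap, with changes of 0.24, 0.16 and 0.45 in LBRKO, TKO and QKO. L2c changed by 0.22, 0.11 and 0.34 and L2a by 0.17, 0.09 and 0.26. Of the L2 subfamilies with most copies, the plain subfamily L2 changed least, by 0.07 in LBRKO and 0.09 in QKO, while its 0.03 in TKO did not pass. Among CR1 subfamilies, L3 (9992 copies) rose by 0.10 in TKO and 0.15 in QKO, with 0.05 in LBRKO not called, and L3b rose by 0.09, 0.07 and 0.20. With the median over copies the QKO change of L3 turned to -0.11, and L2, L2a, L3 and L3b were not called in QKO. X6B_LINE (580 copies) fell in all 3 mutants (-0.18, -0.10 and -0.21). Plat_L3 (565 copies) was not called in any of them.

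The largest falls were in small CR1 subfamilies. CR1-13_AMi (36 copies) had 1.16, 1.08 and 0.975 in naive WT, and its LBRKO libraries had 0.699, 0.795 and 0.706, its TKO libraries 0.891, 0.903 and 0.972 and its QKO libraries 0.582, 0.758 and 0.743. LBRKO and QKO libraries lay below all WT libraries by a wide margin, while the highest TKO library was just under the lowest WT library. It led the falls in LBRKO (-0.49, limma adjusted p = 1.1e-05). CR1-L3B_Croc (12 copies) had 0.851, 0.991 and 0.788 in WT and 0.415, 0.733 and 0.520 in QKO, a change of -0.60 (SE 0.130, limma adjusted p = 0.000345), and -0.43 in QKO against TKO. X21_LINE, the member subfamily with most LAP2B over IGG, had 1.39, 1.53 and 1.34 in WT and 1.1, 1.13 and 1.31 in TKO, where it led the falls (-0.25, limma adjusted p = 0.0081, or 0.0525 without WT replicate 2). These 3 subfamilies rest on 12 to 36 copies.

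Subfamilies with more LMNB1 over IGG in WT cells tended to have a more negative LAP2B change from WT in the mutants, on the relative scale. Over the 42 subfamilies, Pearson's r between the naive LMNB1 over IGG difference and the change was -0.88 in LBRKO, -0.85 in TKO and -0.87 in QKO. In EpiLCs it was -0.69, -0.85 and -0.89. Over all 1202 subfamilies the values were -0.50, -0.69 and -0.75 in naive mESCs and -0.41, -0.84 and -0.82 in EpiLCs. These are descriptions across subfamilies, which share bins, libraries and WT cells and are not independent.

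**Figure D5:**
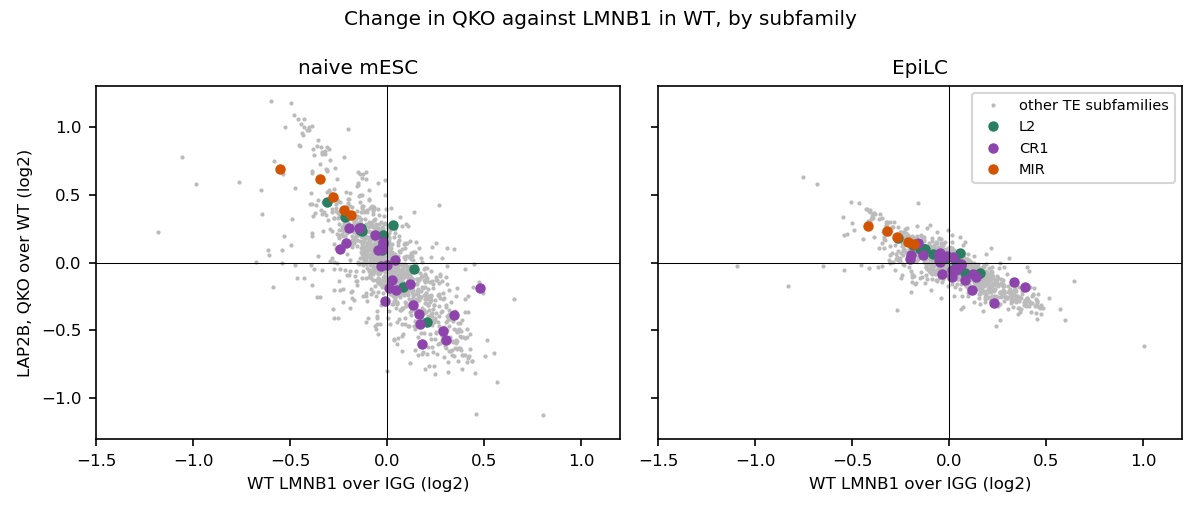
Log2 change of LAP2B in QKO against WT (vertical axis, relative scale) plotted against log2 LMNB1 over IGG in WT (horizontal axis) for 1202 TE subfamilies, with L2, CR1 and MIR subfamilies in colour, in naive mESCs and EpiLCs. Member subfamilies run from upper left (MIR1_Amn at -0.55 and 0.69 in naive mESCs) to lower right, and 4 naive and 1 EpiLC subfamilies, 0 of them members, lie outside the axes.

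In EpiLCs fewer member subfamilies changed on the relative scale. In LBRKO 10 rose and 6 fell (19.0% and 28.8% of all; 6 and 3 without WT replicate 1, against 14.8% and 25.0%), in TKO 12 and 2 (14.8% and 18.5%) and in QKO 14 and 5 (22.7% and 26.9%). All 5 MIR subfamilies rose in TKO and QKO, and 4 of 5 in LBRKO. Most of these calls were lost with the median over copies. LBRKO then had 2 higher and 2 lower (5.32% and 13.7% of all), TKO 1 and 0 (0.25% and 0.0832%) and QKO 3 and 0 (5.07% and 6.91%). Of the MIR subfamilies only MIR3 was called in LBRKO, MIR1_Amn in TKO, and MIR1_Amn, MIR3 and MIRb in QKO. LBRKO had 11 higher and 4 lower by the mean TE copy (20.6% and 26.1% of all), TKO 8 and 7 (7.74% and 31.8%) and QKO 10 and 13 (11.1% and 45.7%). The counts by the median gene were 0 and 2 (2.75% and 23.4%), 0 and 26 (0.416% and 76.4%) and 0 and 36 (1.16% and 88.9%). QKO and TKO differed in 0 member subfamilies (0.0% of all; 1 member at an unadjusted limma p under 0.05, and 0 by edgeR and by DESeq2). MIR1_Amn again led the rises in TKO (0.20) and QKO (0.27), and among called subfamilies MIR3 in LBRKO (0.12, limma adjusted p = 0.0138, or 0.0912 without WT replicate 1). CR1-13_AMi led the falls in LBRKO (-0.27) and QKO (-0.30), and X21_LINE in TKO (-0.27, limma adjusted p = 0.0079, or 0.0522 without TKO replicate 3).

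How far the effect of a genotype differed between stages depended on how copies were summarised. On the relative scale the QKO effect was higher in EpiLCs for 9 member subfamilies and lower for 18 (24.7% and 29.2% of all), but with the median over copies for 1 and 1 (5.32% and 4.49%). By the mean TE copy it was higher for 23 and lower for 4 (64.9% and 7.99%) and by the median gene for 37 and 0 (89.3% and 2.0%). The LBRKO effect was higher for 2 and lower for 11 (14.3% and 12.6%), and with the median over copies for 0 and 0 (0.0832% and 1.08%). By the mean TE copy these were 3 and 5 (28.4% and 5.49%) and by the median gene 36 and 0 (83.4% and 0.166%). The TKO effect was higher for 1 and lower for 0 (2.08% and 16.6%; 0 called without any 1 of 10 of the 12 libraries, against at most 2.58% and 19.1%), and with the median over copies for 0 and 0 (0.0832% and 0.832%). By the mean TE copy these were 4 and 0 (9.4% and 7.07%) and by the median gene 40 and 0 (75.5% and 0.666%). MIR1_Amn had the largest drop in effect, by -0.42 for QKO and -0.21 for LBRKO, since its EpiLC QKO libraries (1.17, 1.18 and 1.15) stood nearer to WT (0.904, 0.951 and 1.00) than in naive mESCs. Among called member subfamilies, the largest rises were those of CR1-L3B_Croc for QKO (0.51), X13_LINE for LBRKO (0.17) and X6B_LINE for TKO (0.08). On the spike-in scale the QKO effect was higher, that is, less negative, for 20 of 42 and lower for 0 (60.2% and 0.0% of all). That count moved with the setting: it was 0 with a pseudocount of 1 times the median (0.0% of all), 40 with the factor applied to reads (93.8%) and 41 with the median over copies (92.1%). It was 0 without WT replicate 2 of either stage or QKO EpiLC replicate 1 (0.0832% of all each), 8 to 12 without QKO naive replicate 2 or 3 or QKO EpiLC replicate 3 (13.3% to 31.9%), and 31 without WT replicate 1 of either stage (84.7% for naive and 80.0% for EpiLC).

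In WT cells LAP2B over 9 member subfamilies rose and over 1 fell from naive mESCs to EpiLCs on the relative scale (14.3% and 13.3% of all), but with the median over copies over 0 and 0 (0.832% and 1.08%). By the mean TE copy it rose over 2 and fell over 4 (6.07% and 26.3%) and by the median gene over 0 and 40 (0.25% and 96.6%). All 5 MIR subfamilies were among the 9 (median 0.10), with MIR1_Amn the most (0.13), and X13_LINE, an L2 subfamily of 52 copies, fell (-0.13). The count was 2, with all of them higher, without WT naive replicate 2 or WT EpiLC replicates 2 or 3 (4.41% to 9.82% of all higher), and 6 without WT naive replicate 1 (18.4% called in either direction). LMNB1 changed in 0 member subfamilies (0.0832% of all higher and 0.832% lower; 5 members at an unadjusted limma p under 0.05, and 0 adjusted by edgeR and by DESeq2). IGG changed in 1, CR1-L3A_Croc (0.18; 0.0832% and 0.166% of all), and in 0 when any 1 library was left out (at most 0.0832% of all). The pooled spike-in level of LAP2B overlapped between stages (-0.07), and that of IGG was higher in all EpiLC libraries (0.94, exact permutation p = 0.1, the smallest possible).

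Copy by copy, the members behaved much like other TEs. On the relative scale 25.3% of member copies had all 3 naive QKO libraries above all WT libraries and 22.2% all below, against 24.8% and 23.8% of all TE copies. The shares were 27.5% and 20.9% for MIR, 23.1% and 23.4% for L2, and 18.9% and 26.3% for CR1. In naive LBRKO 20.9% were higher and 14.8% lower (19.1% and 18.5% of all), and in naive TKO 11.4% and 12.9% (11.1% and 12.5%). In EpiLCs the shares were 12.9% and 8.57% in LBRKO (11.9% and 10.9% of all), 11.0% and 6.94% in TKO (9.73% and 8.1%) and 14.0% and 10.4% in QKO (12.9% and 12.0%). On the spike-in scale the split was one-sided in TKO and QKO: 3.03% of member copies were higher and 69.2% lower in naive QKO (2.86% and 69.5% of all TE copies), 0.865% and 42.4% in naive TKO (0.863% and 43.0%), and 15.5% and 16.1% in naive LBRKO (14.3% and 19.8%). In EpiLCs they were 0.333% and 52.2% in QKO (0.362% and 53.8%), 1.37% and 15.1% in TKO (1.33% and 16.8%) and 10.9% and 7.25% in LBRKO (10.3% and 9.16%). These counts are close to those of all TE copies and carry no test, since copies share bins.

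At single miRNA bins counts were low and mostly overlapped between genotypes. The bin of Mir28c held 26, 21 and 28 reads in naive WT LAP2B and 12, 8 and 12 in LBRKO. It held 23, 12 and 10 in TKO and 12, 8 and 8 in QKO. Relative to the median member copy of the library this was 1.63, 1.91 and 2.33 in WT, in the third quartile of the LMNB1 order. It was at most 0.75 in LBRKO and 1.0 in QKO, without overlap with WT, and 1.64, 1.5 and 0.833 in TKO, which overlapped. The bin of Mir493, in the second quartile, went the other way, with 25, 4 and 6 reads in WT (1.56, 0.364 and 0.5) and 38, 35 and 24 in QKO (3.17, 2.06 and 2.4). Its IGG libraries held 4, 44 and 34 reads, and therefore varied as much as LAP2B. The bin of Mir708 was in the quartile with most LMNB1 in naive mESCs and held 22, 11 and 18 reads in WT and 6, 20 and 12 in QKO, which overlapped. The bin of Mir28a, whose product has the same seed, held 6 to 14 reads in WT and 6 to 21 in QKO, and that of Mir374b, Mir374c and Mir421 lay in the quartile with least LMNB1 at both stages. These bins were selected for their genes, and no test was made of them. Lack of overlap at a single bin is common. On the relative scale, 18.49% of all TE copies in naive LBRKO and 23.79% in naive QKO lay wholly below WT. Those wholly above were 19.1% and 24.85%.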

How the data were processed

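LAP2B, LMNB1 and IGG CUT&RUN values of 36 libraries were used. Per the study's methods and processing notes, the authors aligned pairs to mm39 with Bowtie2 2.3.5.1, filtered them with SAMtools 1.10 (primary, properly paired, no duplicates, mitochondrial reads or contigs) and made RPKM coverage with deepTools, multiplied by a factor from reads on the yeast genome. The deposited signal per TE copy is the sum of this scaled RPKM over the bins the copy touches. The methods name wider bins for TEs, but the values behave as 1000-base bins: genes lying in 1 bin had equal reads in 324 of 324 bins, and 0 of 327 neighbouring pairs did. A deposited modified z score of naive WT LAP2B was not used. Primary alignments were kept, so reads shared by near-identical copies may be assigned to either copy.

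Every value up to 60 steps was a whole multiple of the library's smallest step (100% within 0.1 of a step), so reads were recovered. Spike-in scale means the deposited value, and relative scale the value divided by the library's median subfamily. Subfamily means over copies (10 or more copies, 1202 subfamilies) were tested two-sided with limma 3.58.1 in R 4.3.3 on log2(value + pseudocount of 0.1 of the table median), which understates changes of low values, with the 24 LAP2B libraries in 1 fit of group means, LMNB1 and IGG stage changes in fits of their own, and 36 libraries for values over IGG. Benjamini-Hochberg adjustment ran over all subfamilies and a call is an adjusted p under 0.05. Pooled values, 1 per library, had exact permutation tests (15400 assignments over 4 genotypes, 20 for a pair, adjusted over 4 pairs, and 400 for a difference between stages, adjusted over 3). Scripts used Python 3.11.15 with pandas 2.3.3 and scipy 1.17.1, and were tested on simulated data. Depth limits single copies (median 8 to 28 reads). On recovered reads, edgeR 4.0.16 called 20 member subfamilies higher and 15 lower in naive QKO on the relative scale (36.8% and 43.9% of all), and DESeq2 1.42.0 called 20 and 14 (40.4% each).

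Named in the text are the 3 families, the 4 subfamilies with most copies in each, the largest rise and fall of each relative comparison, and copies in bins of listed miRNA genes. L1M means LINE-1 subfamilies named L1M but not L1Md, and DNA transposons are hAT-Charlie and TcMar-Tigger. Members, lists and tests were chosen with earlier results of these data known. The match of copies to genes needed 100 summed reads, a minimum set after the values were seen. Nothing states that replicate numbers pair libraries. Only naive QKO met the pairing criterion (each of 3 same-numbered pairs with WT correlated by over 0.1, at 0.150, 0.266 and 0.191), and the replicate block left its calls at 34 and 42. Left out of subfamily tests were L2-1_Crp (4 copies) and CR1-11_Crp (8 copies). The alternatives tried were other scalings, pseudocounts, copy minimums, medians over copies, the replicate block, other tools and leaving out each library.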

Additional observations from a re-analysis of the deposited data

Results flagged for a closer look

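The effect of a genotype differed between naive mESCs and EpiLCs in 7 tests of pooled measures of L2, CR1 and MIR copies, each past an adjusted p of 0.05 by an exact permutation test that swapped stages inside each genotype. The lamina contrast in QKO was further below WT in naive mESCs than in EpiLCs, by 1.35 log2 units. Its parts moved with it: relative to all member copies, the QKO effect over the quartile with most LMNB1 was less negative in EpiLCs by 0.53, and that over the quartile with least LMNB1 less positive (EpiLC minus naive -0.81), each with an adjusted p of 0.015 by the exact permutation test. The ratio to B1 was also further below WT in naive mESCs, with stage differences of 0.18 for LBRKO, 0.15 for TKO and 0.40 for QKO. The ratio to other TE copies in LBRKO was further above WT in naive mESCs, and its EpiLC effect was smaller by 0.07 (EpiLC minus naive -0.07). With the median gene as the reference, the naive LBRKO difference turned to -0.15, and the stage difference was not tested in that setting.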

How the results depend on the processing

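Depth limits single copies, and 3 libraries per group limit the pairwise tests, which cannot go below 0.1. Differences were given on 2 scales because the spike-in factor and the choice of reference each moved values. Of the alternatives for the main results, 910 kept direction and side of the threshold or, for counts, a total within 1.5 times. Of the rest, 94 counts moved by more, 13 differences reversed, and 5 permutation tests no longer passed the threshold. For pairwise differences of pooled values, whose p cannot go below 0.1, the side was fixed in advance and only the direction could change. Among the subfamily counts, 17 kept a total within 1.5 times but had the majority of calls in the other direction. Of the 17, 16 came by another scaling and 1 (naive QKO) with the median over copies, and their splits stand with each comparison. The other alternatives are given here, and the causes of the changes were not tested.

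With the median over copies in place of the mean, the naive LBRKO level difference turned to -0.065 and the naive QKO ratio to other TE copies to -0.0031. The exact permutation p over the genotypes became 0.616 for the naive ratio to other TE copies, 0.127 and 0.299 for the ratio to L1M in naive mESCs and EpiLCs, and 0.179 for the naive ratio to DNA transposons, whose EpiLC TKO difference became -2.3e-08. The L2 ratio to other TE copies in QKO became -0.10 in naive mESCs and -0.021 in EpiLCs. With the median gene as the reference, the naive ratio of all members became -0.15, -0.39 and -0.36 in LBRKO, TKO and QKO, and -0.091 and -0.13 in EpiLC TKO and QKO. By family it became -0.18 (LBRKO) and -0.46 (QKO) for naive L2, -0.12 and -0.17 for EpiLC L2 in TKO and QKO, -0.16 for EpiLC CR1 in TKO, -0.10, -0.35 and -0.26 for naive MIR, and -0.060 and -0.094 for EpiLC MIR in TKO and QKO. Without the top 1% of copies, naive L2 in QKO became -0.0040 and EpiLC CR1 in TKO -0.011.

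Shares of all subfamilies are given with each comparison and, where not, in parentheses. Fewer member subfamilies were called with the median over copies on the relative scale: 10 in naive LBRKO, 8 in TKO, 12 in QKO against TKO (2 higher and 10 lower), 4, 1 and 3 in EpiLC LBRKO, TKO and QKO, 0, 0 and 2 for the stage effect of LBRKO, TKO and QKO, 10 and 4 for LAP2B over IGG in naive mESCs and EpiLCs, 12 for EpiLC LMNB1 over IGG, and 0 for the WT stage change of LAP2B. Scaled by the median gene, 42 were called in naive TKO, 2, 26 and 36 in EpiLC LBRKO, TKO and QKO, 36 and 40 for the stage effect of LBRKO and TKO, 41 for LAP2B and for LMNB1 over IGG in naive mESCs, and 40 for the WT stage change of LAP2B. Scaled by the mean TE copy, 8 and 4 were called for the stage effect of LBRKO and TKO and 6 for the WT stage change of LAP2B. The IGG stage change was called in 0 by edgeR, by DESeq2, without a filter, with 100 or more copies, with the median over copies and by the mean TE copy (0.0% to 4.49% of all), and without a filter 1 was called for the LMNB1 stage change (0.898%).

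On the spike-in scale, applying the factor to reads gave 17 and 5 calls for LBRKO in EpiLCs and naive mESCs, 3 for naive QKO against TKO, 0 for EpiLC TKO (0.0832%), and 40 and 42 for the stage effect of QKO and TKO (93.8% and 99.8%). With the median over copies there were 3 calls in naive LBRKO (22.5%), 8 in EpiLC TKO (20.1%) and 41 for the QKO stage effect (92.1%). With 100 or more copies there were 0 in naive LBRKO (9.18%), 0 in EpiLC TKO (13.9%) and 10 of 28 for the QKO stage effect (58.0%), and with a pseudocount of 1 times the median 25 in naive QKO against TKO (75.4%) and 0 for the QKO stage effect (0.0%).

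The median change of the member subfamilies was near 0 in EpiLC LBRKO (-0.0093). It turned to 0.035 with 100 or more copies, 0.018 with DESeq2, 0.016 with edgeR, 0.0017 with the median over copies and 0.010 without a filter. The values by the mean TE copy (0.0099) and by the median gene (0.011) were taken relative to the median of all subfamilies. That median was -0.015 and -0.071 under these scalings and -0.019 in the main setting, where it was not taken off. Their sign therefore does not show a turn from the main value. With the median over copies the median member change turned to -0.087 in naive QKO, -0.0062 in EpiLC QKO, and 0.0044 and 0.0038 for LAP2B over IGG. With edgeR it turned to 0.0015 for naive LAP2B and 0.0017 for naive LMNB1 over IGG. Among named subfamilies, L3 turned to -0.11 in naive QKO and 0.02 for EpiLC LAP2B over IGG with the median over copies, and the subfamily L2 to 0.00039 for naive LMNB1 over IGG with edgeR.

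Leaving out 1 library at a time gave level differences of -0.088 to 0.22 in naive LBRKO (negative without WT replicate 1 or 3 or LBRKO replicate 3) and -0.12 to 0.16 in EpiLC LBRKO (negative without WT replicate 2), level differences of -0.59 to -0.18 in EpiLC TKO, an EpiLC LBRKO lamina contrast of -0.20 to -0.077, a naive TKO ratio to other TE copies of -0.0033 to 0.030 (negative without TKO replicate 2), and a p over the genotypes of 0.012 to 0.117 for the EpiLC ratio to DNA transposons (0.117 without QKO replicate 2). Small ratios moved by over 1.5 times: to DNA transposons from 0.0040 to 0.029 in EpiLC LBRKO, 0.0029 to 0.025 in EpiLC TKO and 0.029 to 0.075 in naive TKO, and to L1M from 0.019 to 0.072 in EpiLC LBRKO. Among small differences, the CR1 ratio to other TE copies ranged from -0.025 to 0.00081 in naive LBRKO and from -0.0057 to 0.0072 in EpiLC TKO, and the median subfamily change from -0.017 to 0.021 in EpiLC LBRKO and from -0.0021 to 0.021 in naive TKO. Counts on the relative scale ranged from 9 to 18 in EpiLC LBRKO (39.9% to 46.3% of all), from 0 to 1 for the TKO stage effect (11.6% to 21.7%), were 0 for the IGG stage change (0.0% to 0.0832%), and ranged from 2 to 11 for the WT stage change of LAP2B (9.4% to 29.2%). On the spike-in scale they ranged from 0 to 2 in naive LBRKO (0 without WT replicate 2 or LBRKO replicate 1 or 2, and 2 without WT replicate 1; 0.0832% to 16.5% of all), 0 to 31 for the QKO stage effect (0.0832% to 84.7%), 0 to 42 for EpiLC QKO against TKO (0.0% to 99.9%), 21 to 41 for naive QKO against TKO (69.6% to 96.8%), 0 to 42 for the TKO stage effect (42 without naive TKO replicate 2 or EpiLC TKO replicate 3, 39 without naive WT replicate 1; 0.0% to 86.5%) and 0 to 42 in EpiLC TKO (0.0% to 97.9%).

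Replicate numbers did not meet the pairing criterion in 5 of 6 comparisons with WT. Deviations of same-numbered libraries correlated by -0.339 to 0.266, over 0.1 in 5 of 18 pairs, and 8 of 18 correlated best with their own number. The exception was naive QKO, whose 3 pairs correlated by 0.150, 0.266 and 0.191, each best with its own number. EpiLC LBRKO libraries were also each best with their own number, but not all over 0.1 (0.078, 0.042 and 0.177). With the replicate block the naive QKO calls were 34 on the relative and 42 on the spike-in scale, as without it. With the replicate block, 0 subfamilies were called for the relative TKO stage effect, the relative IGG stage change and spike-in EpiLC TKO (18.8%, 0.0% and 0.0832% of all), and 2 for the spike-in LMNB1 stage change (4.08%), and the smallest exact permutation p of a pooled difference within numbers is 0.25.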
